A study of Mus musculus with 5 samples.

Results

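Galectins are proteins that bind beta-galactoside sugars, and 4 of their genes (Lgals1, Lgals3, Lgals8 and Lgals9) are described here together with Lgals3bp, which encodes the galectin-3-binding protein. The 5 genes were chosen by name from the 56748 genes of the count table, and all 5 passed the filter on low counts that kept 17724 genes for testing. The RNA came from CD11b-positive cells, taken at 7 months of age from mouse brain without the cerebellum and sequenced in bulk; the design text says brain tissue. The 3 Cd5l-transgenic libraries (replicates 1, 2 and 3) came from 5xFAD/Cd5l tg/wt mice, in which the human PDGF-B promoter drives mouse CD5L on the 5xFAD background. The 2 5xFAD libraries (replicates 1 and 3) came from mice without that transgene. All 5 mice therefore carried the 5xFAD transgenes, which drive amyloid plaque formation through a neuronal promoter. The comparison asks whether galectin RNA in these cells differed when CD5L was also made. Wild-type mice were not analysed here.

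Galectins have no signal for classical secretion. They are found in the cytosol, where some of them mark lysosomes whose membrane has broken, and outside the cell, where they crosslink glycoproteins. Microglia, the resident macrophages of the brain, make galectin-3 in the activated state seen around plaques, and galectin-3 is known as a ligand of the receptors TREM2 and TLR4. The galectin-3-binding protein is a secreted glycoprotein with a scavenger receptor cysteine-rich (SRCR) domain, the domain type that also makes up CD5L.

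A sequence element common to the 4 galectin genes, and absent from Lgals3bp, shows how the family is built. Each galectin sugar-binding domain holds a tryptophan that packs against galactose, followed by a glycine, any 1 residue and a glutamate. An in-frame search of the coding sequences of GENCODE M21 (GRCm38) for the codon TGG, a codon starting GG, any codon, and GAA or GAG gave 1 stretch each in Lgals1 and Lgals3, 2 each in Lgals8 and Lgals9, and 0 in Lgals3bp. The stretches are shown because their number separates the galectins with a single sugar-binding domain from the tandem-repeat ones. Each has 60 bases, read 5′ to 3′ on the coding strand, with the 4 matched codons in capitals.
Lgals1, chromosome 15, coding bases 184 to 243: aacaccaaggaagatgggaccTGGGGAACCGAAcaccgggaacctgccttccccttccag
Lgals3, chromosome 14, coding bases 562 to 621: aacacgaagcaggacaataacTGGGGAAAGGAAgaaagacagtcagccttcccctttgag
Lgals8, chromosome 13, coding bases 232 to 291: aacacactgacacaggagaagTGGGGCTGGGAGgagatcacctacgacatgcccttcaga
Lgals8, chromosome 13, coding bases 748 to 807: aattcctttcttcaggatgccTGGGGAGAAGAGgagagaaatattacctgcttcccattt
Lgals9, chromosome 11, coding bases 220 to 279: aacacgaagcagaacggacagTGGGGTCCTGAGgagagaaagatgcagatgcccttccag
Lgals9, chromosome 11, coding bases 832 to 891: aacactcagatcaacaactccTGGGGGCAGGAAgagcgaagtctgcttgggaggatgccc

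Lgals1 and Lgals3 were the most alike of these stretches, with 40 of 60 bases identical (66.7%), and Lgals3 and the first stretch of Lgals9 followed with 37 (61.7%). The other pairs shared 24 to 33 bases. The 2 stretches within Lgals9 shared 30 bases and the 2 within Lgals8 shared 24. The longest run that any 2 of the 5 coding sequences had in common was 17 bases, between Lgals3 and Lgals8. No run of 50 bases of Lgals1, Lgals3, Lgals3bp or Lgals9 transcripts occurred in transcripts of another gene in that annotation. Of the 50-base runs of Lgals8, 3.87% did, 107 of them on the opposite strand of Heatr1 and 41 in a further gene model. The sources used here do not say whether the counting used strand, and reads from the overlap of Lgals8 and Heatr1 cannot be told apart without it.

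The libraries held between 30798377 and 34794617 counts, and 1 count was worth 0.0282 to 0.0339 CPM (counts scaled to a common library size by the trimmed mean of M-values). Cd5l itself stood at 233.7, 334.9 and 194.8 CPM in the Cd5l-transgenic libraries, against 1.53 and 0.254 CPM in the 5xFAD libraries. The 12 markers of microglia and of CD11b-positive cells (Itgam encodes CD11b) summed to 26890 to 28960 CPM with the transgene and 26700 and 28330 CPM without, and none of the 12 was at 0. Markers of other cells were present too: 8 oligodendrocyte genes summed to 4224 CPM in Cd5l-transgenic replicate 2, against 336.9 to 1072 CPM elsewhere. The 9 choroid plexus and ependymal genes summed to 2835 CPM in 5xFAD replicate 3, against 264.0 to 541.8 CPM elsewhere. Erythroid and neuron RNA was low but higher in every Cd5l-transgenic library. The 6 erythroid genes summed to 7.85, 22.05 and 8.68 CPM with the transgene, against 2.41 and 1.58 CPM without. The 8 neuron genes summed to 15.7, 25.7 and 12.8 CPM, against 10.9 and 11.5 CPM. All 6 erythroid and 3 of the 8 neuron genes were separated in that direction, beside 7.2% of all genes. In such bulk samples, fewer cells of a type and less RNA per cell cannot be told apart.

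None of the 5 genes differed between the genotypes beyond the spread between libraries. In the edgeR quasi-likelihood test, adjusted by Benjamini-Hochberg over 17724 genes, 0 of 5 members passed the threshold of 0.05, where 0% of all genes did. At an unadjusted p under 0.05 there were again 0 of 5, beside 2.68% of all genes (1.22% higher and 1.46% lower). DESeq2 called 0 of 5, beside 0.0615% of genes higher and 0.0137% lower. For 0 of 5 members did all Cd5l-transgenic libraries lie on one side of both 5xFAD libraries, beside 15.9% of all genes (7.2% higher and 8.69% lower). The edgeR test did not call Cd5l either (log2 fold change 8.23, SE 0.66, adjusted p = 0.765), so a missed threshold does not show that 2 levels are the same, and each fold change is given with its interval. Each library is named for its own mouse, and the p-values measure only the spread between these 5 libraries.

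**Figure D1:**
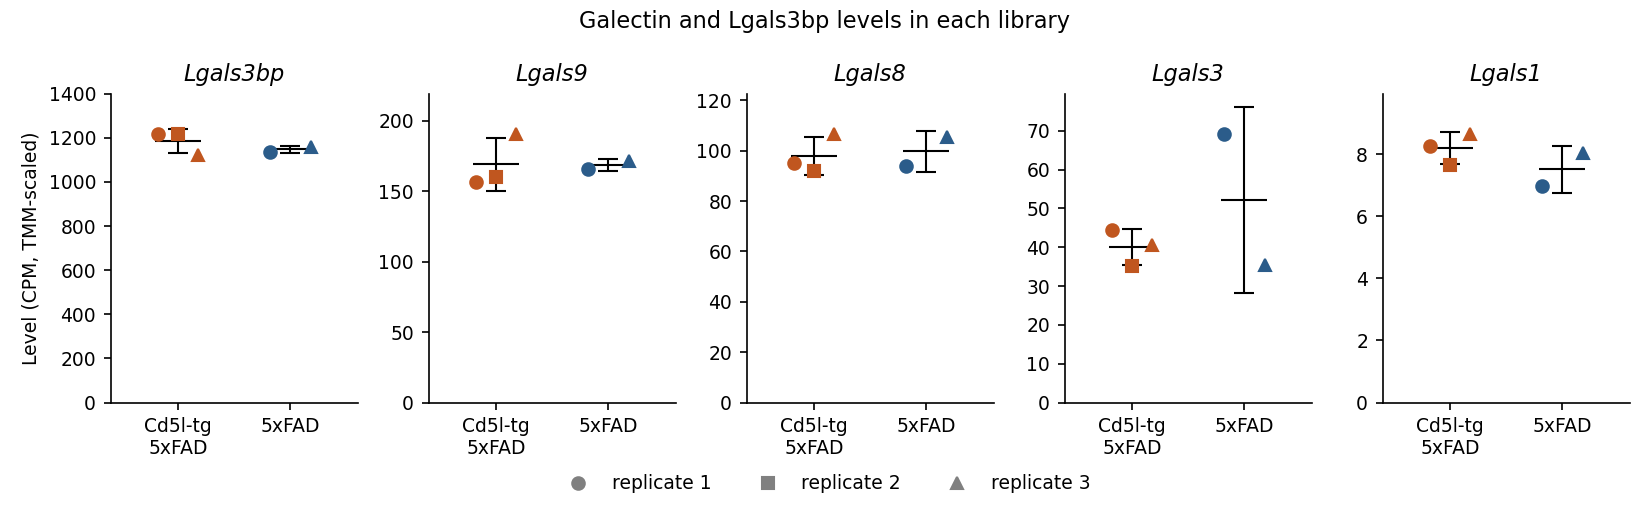
Level of each gene in CPM (linear axes from 0, a different scale in each panel) in the Cd5l-transgenic 5xFAD libraries (left, orange) and the 5xFAD libraries (right, blue). Points are single libraries with the shape giving the replicate, and bars are the mean and SD (n = 3 and n = 2). The genotypes overlap in every panel, and the widest spread relative to its mean is that of Lgals3 in 5xFAD, where replicate 1 stands at 69.2 CPM.

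Lgals3bp (ENSMUSG00000033880, GRCm39 chromosome 11, 118283577 to 118292918, minus strand) was by far the most abundant of the 5 per kilobase of gene length and ranked 80 among all tested genes on that scale. It stood at 1216, 1218 and 1121 CPM in Cd5l-transgenic replicates 1, 2 and 3, against 1137 and 1158 CPM in 5xFAD replicates 1 and 3. Both 5xFAD libraries lay inside the range of the Cd5l-transgenic ones. The means were 1185 ± 55.7 CPM (SD, n = 3) with the transgene and 1147 ± 14.9 CPM (SD, n = 2) without. The log2 fold change was 0.05 (SE 0.10, 95% interval -0.19 to 0.28, edgeR adjusted p = 0.999). On the linear scale that interval runs from a ratio of 0.876 to one of 1.22.

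Lgals3bp was also the steadiest of the members. Its SD within genotypes was 0.06 on the log2 scale, which 12% of the 10947 genes averaging 5 CPM or more undercut. Its reads made up between 76.4% and 80.5% of the summed CPM of the 5 members in the Cd5l-transgenic libraries, and 77.2% and 78.3% in the 5xFAD libraries. That sum hardly varied, at 1520, 1513 and 1468 CPM with the transgene against 1473 and 1478 CPM without.

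Lgals9, the gene of galectin-9 (ENSMUSG00000001123, chromosome 11, 78853800 to 78875772, minus strand), was the most abundant galectin per kilobase. Galectin-9 is a tandem-repeat galectin known as a ligand of the receptor TIM-3. The gene had 156.5, 160.0 and 190.8 CPM in Cd5l-transgenic replicates 1, 2 and 3, against 165.7 and 171.6 CPM in 5xFAD replicates 1 and 3. The 5xFAD libraries lay between the second and the highest of the Cd5l-transgenic ones. The means were 169.1 ± 18.9 CPM (SD, n = 3) and 168.6 ± 4.17 CPM (SD, n = 2). The log2 fold change was 0.0042 (SE 0.11, 95% interval -0.26 to 0.27, edgeR adjusted p = 0.999). The sign of so small a value changed without Cd5l-transgenic replicate 3 (-0.07) and without 5xFAD replicate 1 (-0.02).

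Lgals8 encodes galectin-8, the tandem-repeat galectin that marks damaged endosomes and lysosomes for autophagy (ENSMUSG00000057554, chromosome 13, 12454296 to 12479825, minus strand). It had 95.03, 92.1 and 106.7 CPM in Cd5l-transgenic replicates 1, 2 and 3, against 94.1 and 105.6 CPM in 5xFAD replicates 1 and 3. In both genotypes replicate 3 was the highest. The log2 fold change was -0.03 (SE 0.10, 95% interval -0.26 to 0.21, edgeR adjusted p = 0.999), with means of 97.9 ± 7.70 CPM (SD, n = 3) and 99.8 ± 8.13 CPM (SD, n = 2). It turned to 0.06 without 5xFAD replicate 3 and to 0.03 without Cd5l-transgenic replicate 2. The overlapping Heatr1 stood at 65.8, 64.8 and 78.9 CPM with the transgene and 72.2 and 74.6 CPM without, and its part in the Lgals8 values was not tested.

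Lgals3, the gene of galectin-3 (ENSMUSG00000050335, chromosome 14, 47605208 to 47623617, plus strand), differed most between libraries. It had 44.4, 35.1 and 40.5 CPM in Cd5l-transgenic replicates 1, 2 and 3, against 69.2 and 35.3 CPM in 5xFAD replicates 1 and 3. A single library, 5xFAD replicate 1, stood apart, while 5xFAD replicate 3 was near the lowest Cd5l-transgenic one. The means were 40.0 ± 4.66 CPM (SD, n = 3) with the transgene and 52.2 ± 24.0 CPM (SD, n = 2) without.

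The log2 fold change of Lgals3 was -0.38 (SE 0.29, 95% interval -1.13 to 0.36, edgeR adjusted p = 0.999). As a ratio the interval spans 0.458 to 1.28, so lower and higher levels with the transgene both lay inside it. The direction rested on that 1 library: leaving it out gave a log2 fold change of 0.18 (adjusted p = 0.998). Leaving out 5xFAD replicate 3 gave -0.79 (adjusted p = 0.374). With Cd5l-transgenic replicate 2 and 5xFAD replicate 3 both left out, an alternative added after seeing the data, it was -0.70 (adjusted p = 0.0275). That fit again sets 5xFAD replicate 1 alone against the transgene and assumes that a lone library varies like the others.

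Lgals1, the gene of galectin-1 (ENSMUSG00000068220, chromosome 15, 78810925 to 78814665, plus strand), was the lowest of the 5 per kilobase. Galectin-1 is abundant in connective tissue and vessel walls. The gene had 8.27, 7.65 and 8.65 CPM in Cd5l-transgenic replicates 1, 2 and 3, against 6.98 and 8.04 CPM in 5xFAD replicates 1 and 3. The lowest value was that of 5xFAD replicate 1, and 5xFAD replicate 3 lay inside the range of the transgenic libraries. The log2 fold change was 0.125 (SE 0.16, 95% interval -0.27 to 0.52, edgeR adjusted p = 0.999), with means of 8.19 ± 0.506 CPM (SD, n = 3) and 7.51 ± 0.751 CPM (SD, n = 2). It was 0.03 without 5xFAD replicate 1 and 0.23 without 5xFAD replicate 3. The counts behind it, 206 to 286 per library, carry a counting error of up to 6.97%.

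Markers of vessel and connective tissue cells varied between the libraries too. The 11 mural and fibroblast markers summed to 229.3, 398.0 and 317.3 CPM with the transgene, against 162.4 and 237.1 CPM in 5xFAD replicates 1 and 3. The 9 endothelial markers summed to 683.8, 1253 and 719.1 CPM, against 640.5 and 613.1 CPM, and no marker of either list was at 0 in all libraries. Of the mural and fibroblast markers 8 lay above 0 and 3 below, beside 42.9% of all genes above 0. The fibroblast markers were mixed. Col1a1 (log2 fold change -0.06, SE 0.56), Col1a2 (-0.50, SE 0.62) and Pdgfra (-0.51, SE 0.58) lay below 0, and Dcn (0.62, SE 0.42) and Lum (0.45, SE 0.94) above. In 3 of the 11 the Cd5l-transgenic libraries exceeded both 5xFAD libraries, beside 7.2% of all genes. DESeq2 called 3 of the 11 higher, beside 0.0615% of all genes it tested, and edgeR called 0. The 3 were the smooth muscle genes Myh11 (DESeq2 adjusted p = 1.94e-05), Tagln (DESeq2 adjusted p = 0.0226) and Acta2 (DESeq2 adjusted p = 0.0294). Myh11 stood at 73.6, 108.2 and 80.1 CPM with the transgene, against 37.9 and 40.9 CPM without (DESeq2 log2 fold change 1.17). All 9 endothelial markers lay above 0, and in 6 of the 9 the Cd5l-transgenic libraries exceeded both 5xFAD libraries, beside 7.2% of all genes. Both edgeR and DESeq2 called 0 of the 9, and 1 (Pecam1) was higher at an unadjusted edgeR p under 0.05, beside 1.22% of all genes. The library highest in both sums, Cd5l-transgenic replicate 2, had the least Lgals1 of the transgenic ones. Their part in the Lgals1 values was not tested.

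**Figure D2:**
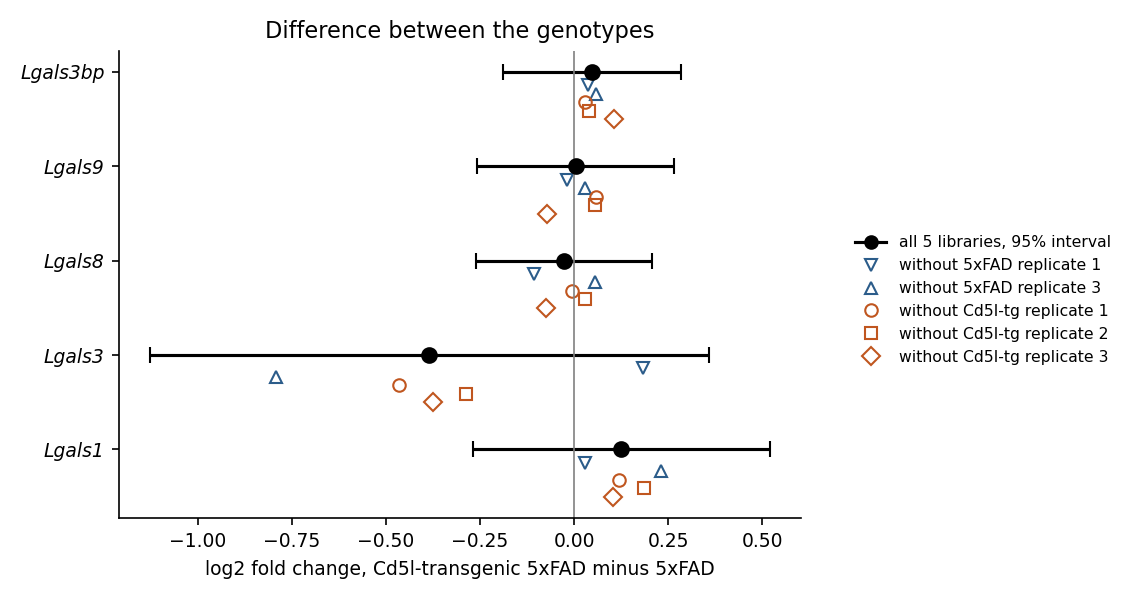
Log2 fold change of each gene, Cd5l-transgenic 5xFAD minus 5xFAD, with its 95% interval over all 5 libraries (black) and without each library in turn (open symbols). All 5 intervals cross 0, and Lgals3 runs from -0.79 without 5xFAD replicate 3 to 0.18 without 5xFAD replicate 1.

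Divided by gene length in kilobases, the mean level was 411 CPM per kb for Lgals3bp, 79.0 for Lgals9, 26.8 for Lgals8, 24.2 for Lgals3 and 8.77 for Lgals1. Lgals3bp exceeded Lgals9 by 4.41 to 5.83 times in every library, Lgals9 exceeded Lgals8 by 2.81 to 3.09 times, and Lgals3 exceeded Lgals1 by 2.13 to 4.82 times. The neighbours Lgals8 and Lgals3 did not keep their order. Lgals8 was higher per kb in 4 of 5 libraries, and in 5xFAD replicate 1 it was lower, with 25.5 CPM per kb against 37.2 CPM per kb for Lgals3. Among the 4 galectins Lgals3 made up 11.7% to 14.6% of the summed CPM in the transgenic libraries, against 20.6% and 11.02% in 5xFAD replicates 1 and 3.

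Of 6 other galectin genes in the table, 2 passed the filter on low counts. The galectin-related gene Lgalsl stood at 12.4, 17.1 and 14.8 CPM with the transgene, against 11.5 and 13.3 CPM without (log2 fold change 0.25, SE 0.17). Lgals4, the gene of the gut galectin-4, stood at 4.69, 5.08 and 3.57 CPM, against 2.85 and 5.19 CPM (log2 fold change 0.14, SE 0.33). Neither passed (edgeR adjusted p = 0.999). Lgals2, Lgals7, Lgals12 and Grifin did not pass the filter on low counts and had 0 to 9 counts in any library, so that no difference was detectable at this depth. Lgals12 had its 9 counts in 5xFAD replicate 3, and each of the others had at most 3.

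The high Lgals3 of 5xFAD replicate 1 came with high levels of plaque-associated genes in the same library. The secreted phosphoprotein gene Spp1 stood at 744.3, 586.2 and 461.3 CPM in the Cd5l-transgenic libraries, against 2766 and 603.2 CPM in 5xFAD replicates 1 and 3. Trem2, the gene of the lipid-sensing receptor, stood at 1719, 1796 and 1672 CPM, against 2406 and 1598 CPM. Gpnmb, which encodes a lysosomal membrane glycoprotein, stood at 546.7, 528.2 and 345.8 CPM, against 2121 and 431.0 CPM. In these 3 genes 5xFAD replicate 1 stood above the other 4 libraries. Atp6v0d2, the gene of a proton pump subunit, stood at 15.0, 17.7 and 15.2 CPM, against 65.6 and 20.9 CPM. Itgax stood at 776.9, 750.2 and 735.7 CPM, against 1503 and 833.7 CPM. The list of 23 late plaque-associated genes summed to 15490, 14730 and 14120 CPM with the transgene, against 23990 and 14270 CPM without. Of the 23 genes 22 lay below 0, with a median log2 fold change of -0.28, beside 57.1% of all genes below 0 and a median over all genes of -0.03. None passed in edgeR or DESeq2, with 2 lower at an unadjusted edgeR p under 0.05, beside 1.46% of all genes. In 2 of the 23, Atp6v0d2 and Itgax, all Cd5l-transgenic libraries lay below both 5xFAD libraries, beside 8.69% of all genes. Without 5xFAD replicate 1 the median of the 23 was 0.03. Lgals3 was thus at its highest in the library with the most late plaque-associated RNA, and the part of that RNA in the Lgals3 values was not tested.

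Galectin-3 is also made by myeloid cells that come from the blood or line the brain's borders, which carry CD11b too. The 10 monocyte markers summed to 226.3, 342.6 and 201.9 CPM in the Cd5l-transgenic libraries, against 168.5 and 229.7 CPM in 5xFAD replicates 1 and 3, with S100a4 listed at 0 in every library, which may not be a true absence. The 9 border macrophage markers summed to 353.0, 227.8 and 412.7 CPM, against 264.4 and 303.5 CPM, and the 9 neutrophil markers to 195.5, 150.7 and 72.7 CPM, against 57.1 and 76.0 CPM. Above 0 lay 8 of 9 tested monocyte, 6 of 9 border macrophage and 9 of 9 neutrophil markers, beside 42.9% of all genes. In 5, 0 and 2 of them all Cd5l-transgenic libraries exceeded both 5xFAD libraries, beside 7.2% of all genes. Both edgeR and DESeq2 called 0 in each list. In 5xFAD replicate 1, the library with the most Lgals3, the monocyte and neutrophil sums were the lowest of the 5 and the border macrophage sum lay within the range of the others. The part of these cells in the Lgals3 values was not tested.

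**Figure D3:**
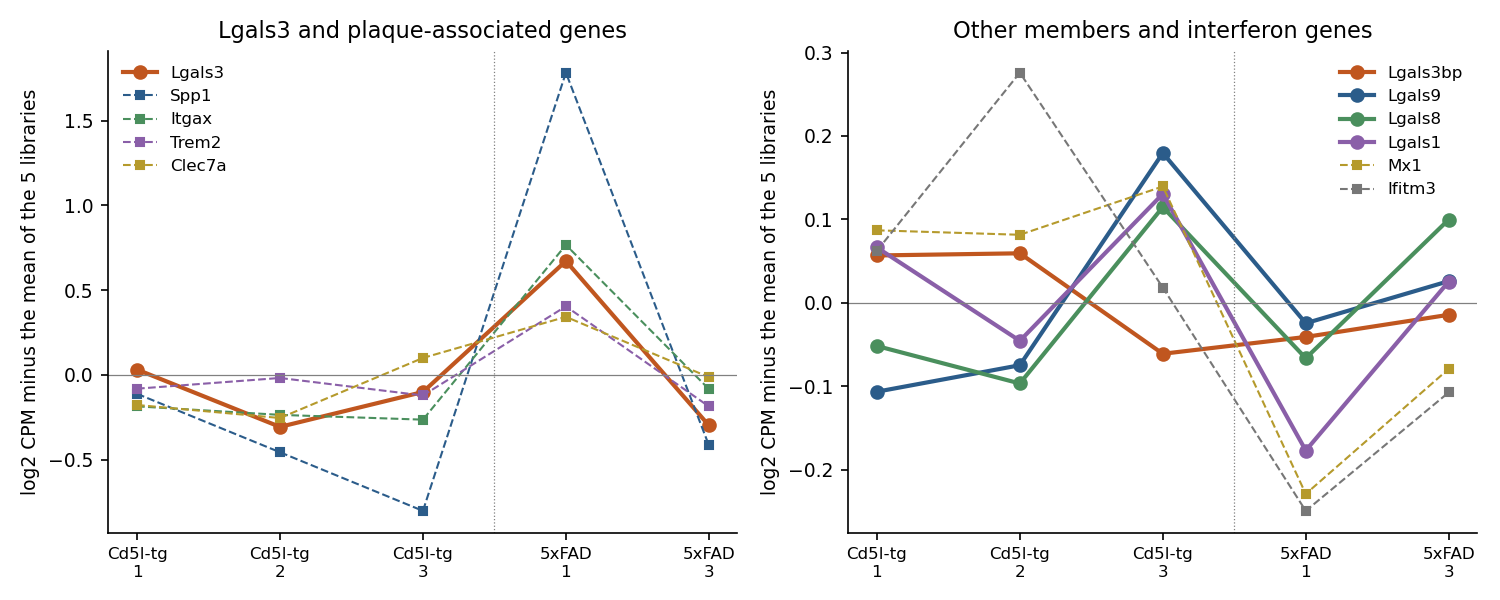
Log2 CPM minus the mean of the 5 libraries, for Lgals3 with 4 plaque-associated genes (left) and the other members with 2 interferon-induced genes (right). The Cd5l-transgenic libraries stand left of the dotted line, thick lines are members, and the vertical scales differ. In the left panel all 5 genes peak in 5xFAD replicate 1, with Lgals3 at 0.67 and Spp1 at 1.78.

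The genes most like each member were found by the root mean square distance between such centred log2 profiles over the 5 libraries, among genes averaging 5 CPM or more with a symbol that is not provisional. For Lgals3 they were Pdcd1 (0.05), which encodes the checkpoint receptor PD-1, the endosomal GTPase gene Rab7b (0.06) and the kinase-anchoring gene Akap5 (0.07). Pdcd1 stood at 48.1, 41.5 and 47.0 CPM in the Cd5l-transgenic libraries, against 76.3 and 40.8 CPM in the 5xFAD libraries. Rab7b stood at 86.5, 74.6 and 76.6 CPM, against 131.4 and 67.4 CPM. Both were highest in 5xFAD replicate 1 and varied less among the other 4 libraries.

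The other members had flatter profiles than Lgals3 and nearer neighbours, and this distance tends to be smaller for flat profiles. Among them the flattest, Lgals3bp, did not have the nearest neighbour, which was that of Lgals8. For Lgals3bp the most like were the class I MHC gene H2-T22 (0.007), Gtf2i (0.009) and Tmco1 (0.009). For Lgals9 they were Manea (0.009), Birc2 (0.01) and Tomm70a (0.02), for Lgals8 Lpcat3 (0.005), Slc25a46 (0.009) and Senp7 (0.01), and for Lgals1 Il13ra1 (0.01), Slc29a3 (0.02) and Zfp169 (0.02). With 5 libraries and 10476 candidates each, such small distances are a description.

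Lgals9 and Lgals3bp are both known to be induced by interferons, so they were set beside the interferon-response genes. Of 30 such genes 27 lay above 0, with a median log2 fold change of 0.19, beside 42.9% of all genes above 0, and none passed in edgeR or DESeq2, with 6 higher at an unadjusted edgeR p under 0.05, beside 1.22% of all genes. In 10 of the 30 all Cd5l-transgenic libraries exceeded both 5xFAD libraries, beside 7.2% of all genes. The antiviral GTPase gene Mx1 stood at 37.4, 37.3 and 38.8 CPM with the transgene, against 30.1 and 33.4 CPM without (log2 fold change 0.26, SE 0.08). Isg15, the ubiquitin-like modifier gene, stood at 12.1, 14.8 and 16.2 CPM, against 10.8 and 10.4 CPM (log2 fold change 0.44, SE 0.16). Ifitm3, which blocks virus entry, had a log2 fold change of 0.30 (SE 0.10). That of the transcription factor gene Stat2 was 0.26 (SE 0.09). Lgals9 (0.0042) and Lgals3bp (0.05) had log2 fold changes below that median, and both genes overlapped between the genotypes. Whether they differed from the list was not tested.

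The promoter of Lgals9 is shown because it carries the core of the interferon-stimulated response element, to which the factors of the interferon pathway bind. RefSeq windows (GRCm38.p6, 250 bases before to 50 after the start) matched 4 of the 5 members, Lgals1 not among them. The core (GAAA, 2 bases of any kind, GAAA) was searched on both strands and found in Lgals9 alone of the 4, with its leftmost base at -55 and 16 from the start, both on the opposite strand. Of all 32851 windows, 3.44% hold it. The shorter IRF site AANNGAAA, which every core contains, was found in Lgals9 (3 matches, 2 of them within the cores) and in Lgals3bp (1 match, at -14), and in 23.9% of all windows. The AP-1 motif TGANTCA (7.81% of windows) and the E-box CACGTG (7.15%) were in none of the 4. A match is a description of these letters and not a site.
Lgals9 promoter, chr11:78984947-78985174, minus strand, bases -250 to -23 and outside annotated exons, with the first IRF site and the upstream core in capitals: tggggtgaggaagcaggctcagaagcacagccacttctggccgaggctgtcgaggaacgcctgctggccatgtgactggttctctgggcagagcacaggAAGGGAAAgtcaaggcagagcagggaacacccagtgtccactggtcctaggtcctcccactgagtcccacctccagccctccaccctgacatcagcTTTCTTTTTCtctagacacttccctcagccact

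Genes of galectin receptors and glycoprotein ligands showed no member past the test. Of 26 measured genes, 0 were called in edgeR, beside 0% of all genes, and 0 in DESeq2, beside 0.0615% higher and 0.0137% lower. At an unadjusted edgeR p under 0.05 there were 0, beside 2.68% of all genes. All Cd5l-transgenic libraries exceeded both 5xFAD libraries in 2 genes, beside 7.2% of all genes, and lay below both in 2, beside 8.69%. Of the 26 genes 10 lay above 0 and 16 below, beside 57.1% of all genes below 0, with a median log2 fold change of -0.04. Those with the smallest unadjusted p were Pdpn, the gene of the glycoprotein podoplanin (log2 fold change -1.46, SE 0.64), Spn, the gene of the sialoglycoprotein CD43 (0.41, SE 0.26), the tetraspanin gene Cd63 (-0.29, SE 0.19) and Pdcd1 (-0.36, SE 0.27). Pdpn stood at 0.905, 1.19 and 0.756 CPM in the Cd5l-transgenic libraries. In 5xFAD replicates 1 and 3 it stood at 0.949 and 4.26 CPM, and the higher value was that of the library with the most choroid plexus RNA, whose part was not tested. For Havcr2, the gene of TIM-3, the log2 fold change was 0.03 (SE 0.10). Tlr4 stood at 0.04 (SE 0.15), and Mertk, the gene of an apoptotic-cell receptor that galectin-3 can engage, at 0.03 (SE 0.10).

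Enzymes that build the branched N-glycans bound by galectins gave a like picture. Of 23 genes, 0 were called by edgeR, beside 0% of all genes, and 0 by DESeq2, beside 0.0615% higher and 0.0137% lower. At an unadjusted edgeR p under 0.05 there were 0, beside 2.68% of all genes. Of the 23 genes 13 lay above 0 and 10 below, beside 42.9% of all genes above 0, with a median log2 fold change of 0.02. B3gnt2, which extends the lactosamine chains that galectins prefer, had 3.91, 3.76 and 4.51 CPM in the Cd5l-transgenic libraries, against 6.24 and 4.515 CPM in the 5xFAD libraries (log2 fold change -0.40, SE 0.24). The genotypes did not overlap, lower with the transgene in this 1 of the 23 genes, beside 8.69% of all genes. The highest transgenic library (4.508 CPM) and 5xFAD replicate 3 hardly differed. The branching enzyme gene Mgat5 was at 0.02 (SE 0.11) on the log2 scale. St6gal1, whose sialic acid cap blocks binding of several galectins, was at -0.04 (SE 0.08). Fut8, which adds the core fucose, was at 0.14 (SE 0.12), and the sialyltransferase gene St3gal4 at 0.12 (SE 0.12). Mgat3, the gene of the bisecting enzyme, had a log2 fold change of 1.24 (SE 0.73), with 14.6 CPM in Cd5l-transgenic replicate 2 and 4.82 and 3.36 CPM in replicates 1 and 3, against 2.27 and 4.12 CPM in 5xFAD replicates 1 and 3. Replicate 2 was the library with the most oligodendrocyte RNA, whose part in the Mgat3 value was not tested.

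The machinery that handles damaged endosomes and lysosomes, where galectin-3 and galectin-8 gather, was measured through 28 genes. In edgeR and DESeq2 0 were called, and 1 was lower at an unadjusted edgeR p under 0.05, beside 1.46% of all genes. Of the 28 genes 8 lay above 0 and 20 below, with a median log2 fold change of -0.04, beside 57.1% of all genes below 0. In 3 of the 28 all Cd5l-transgenic libraries lay below both 5xFAD libraries, beside 8.69% of all genes. Mcoln1, the gene of a lysosomal calcium channel, had 101.2, 107.6 and 107.4 CPM in the Cd5l-transgenic libraries, against 124.8 and 117.2 CPM in the 5xFAD libraries, which were both higher. Its log2 fold change was -0.20 (SE 0.07, unadjusted p = 0.0304, edgeR adjusted p = 0.999). The autophagy genes Optn (-0.37, SE 0.17) and Atg16l1 (-0.17, SE 0.09) and the nutrient-sensing GTPase gene Rragc (-0.17, SE 0.11) came next. Without 5xFAD replicate 1 the median of the list was 0.0005. Calcoco2, whose human counterpart NDP52 is the autophagy receptor that binds galectin-8, did not pass the filter on low counts.

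Of the SRCR family, to which Lgals3bp and Cd5l belong, 13 of 19 listed genes could be tested, both of them included. In edgeR 0 were called, beside 0% of all genes, with 1 gene (Cd5l) higher at an unadjusted p under 0.05, beside 1.22% of all genes. DESeq2 called that gene (log2 fold change 8.19, adjusted p = 5.79e-19), beside 0.0615% of all genes higher. Apart from Cd5l, the genes with the smallest unadjusted p were Loxl3 (log2 fold change -0.18, SE 0.08), Scara5 (-1.38, SE 0.74) and Ssc5d (-1.19, SE 0.80). Scara5 averaged 0.540 ± 0.146 CPM (SD, n = 3) with the transgene and 1.40 ± 1.41 CPM (SD, n = 2) without, and Ssc5d was lower still. The 5xFAD values of Scara5 were 0.407 CPM in replicate 1 and 2.40 CPM in replicate 3. Of the 13 genes 4 lay above 0 and 9 below, beside 57.1% of all genes below 0. Their median log2 fold change was -0.18, and 0.19 without 5xFAD replicate 3. Several of them, Scara5 and Ssc5d included, averaged under 1 CPM. The haemoglobin scavenger receptor gene Cd163 stood at 0.22 (SE 0.28) and the macrophage scavenger receptor gene Msr1 at -0.06 (SE 0.16) on the log2 scale.

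**Figure D4:**
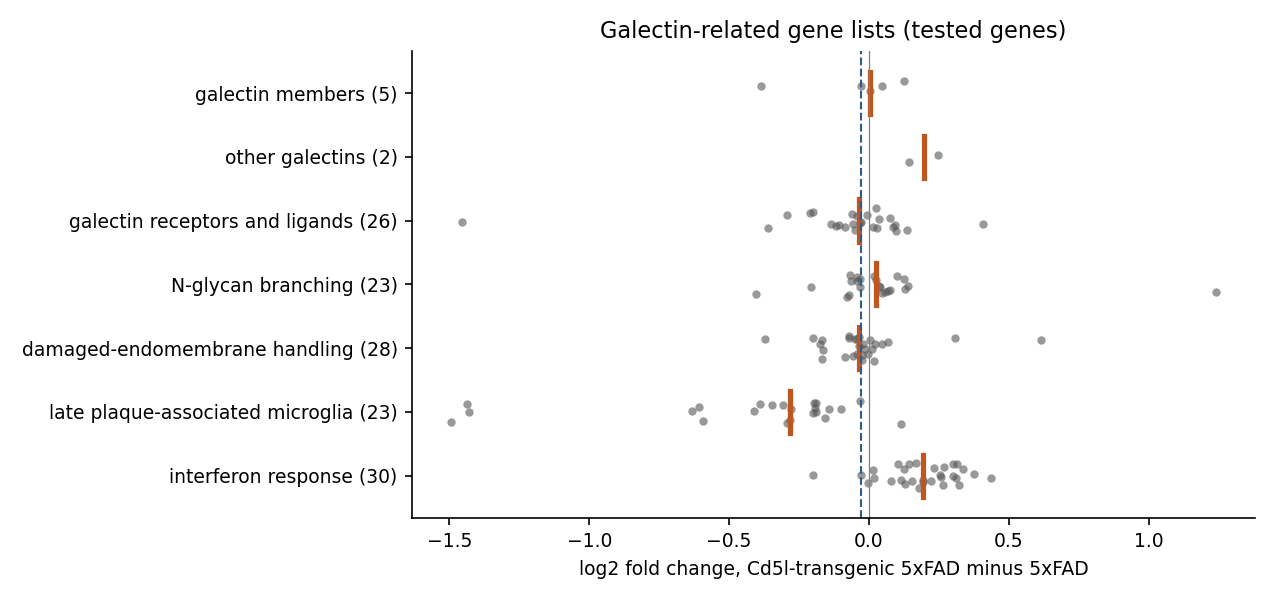
Log2 fold change of each tested gene (points, spread vertically at random), Cd5l-transgenic 5xFAD minus 5xFAD, in the galectin-related lists, with the number tested in parentheses. Orange bars are list medians and the dashed line is the median of all 17724 tested genes (-0.03). The medians run from -0.28 in the late plaque-associated list to 0.20 over the 2 other galectins, and no point in these lists passed the edgeR test.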

How the data were processed

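The authors deposited raw counts, whole numbers without normalisation, for 56748 Ensembl genes in 1 table. Build GRCm39 comes from the submitters' processing notes. Aligner, counting tool and use of strand were not given in the sources used here. Columns were matched to libraries by name, 1 of them with its letter pairs in the opposite order, and 0 per-sample columns were left unused. Gene lengths are those of the deposited table.

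After filterByExpr, TMM scaling gave factors of 0.952 to 1.02, and edgeR 4.0.16 (R 4.3.3, robust quasi-likelihood fit) tested genotype as the only term. The F statistic and the fold change gave the standard error. Profiles used log2 CPM with a prior count of 2. Scripts were tested on simulated counts of 3 libraries against 2. There edgeR called 49 of 97 genes changed 2-fold, 83 of 100 changed 8-fold and 15 of 17218 unchanged genes. With the real counts edgeR did not call Cd5l, so these shares need not hold for them. Alternatives were other scalings, DESeq2 1.42.0, limma-voom (limma 3.58.1), other filters, the replicate number as a block and each library left out. Members and lists were chosen with earlier results of these data known. Named beyond the members were up to 4 genes per list by smallest unadjusted p, 3 genes per member by profile, and reference genes. Others (Myh11, Tagln, Acta2, Havcr2, Tlr4, Mertk, Mgat5, St6gal1, Cd163, Msr1, Calcoco2 and Heatr1) were named for their role or DESeq2 call, after their values were seen. So were the fibroblast markers Col1a1, Col1a2, Pdgfra, Dcn and Lum. As a check for duplicate libraries only, chi-square per degree of freedom between library pairs was computed and ran from 21.5 to 61.3. No pair was taken as a duplicate, and all 5 were kept. These values do not measure library quality. Counting errors cover counting only.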

Additional observations from a re-analysis of the deposited data

How the results depend on the processing

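Leaving out each library in turn gave log2 fold changes of 0.03 to 0.23 for Lgals1, -0.79 to 0.18 for Lgals3, 0.03 to 0.11 for Lgals3bp, -0.11 to 0.056 for Lgals8 and -0.072 to 0.057 for Lgals9, with no member past the threshold. The sign of Lgals8 also turned with the filter of 5 CPM in 2 libraries (0.0028) and with the replicate block (0.015), and that of Lgals9 with limma-voom (-0.059); the cause was not tested. With Cd5l-transgenic replicate 2 and 5xFAD replicate 3 both left out, Lgals3 passed (-0.70), Lgals8 turned to 0.11, and 36 genes were called higher and 58 lower, with fewer samples. All other member values kept their sign and stayed above the threshold. Genes called were 0 in either direction with all libraries in edgeR, against 9 higher and 2 lower in DESeq2, 1 lower without the low-count filter, and 0 to 1 higher and 0 to 9 lower with 1 library left out. List medians ranged from -0.037 to 0.50 for other galectins, -0.078 to 0.073 for receptors and ligands, -0.022 to 0.046 for N-glycan branching, -0.063 to 0.00054 for endomembrane handling, -0.20 to 0.19 for the SRCR family and -0.58 to 0.027 for late plaque-associated genes when 1 library was left out. That of the interferon-response list stayed above 0, at 0.13 to 0.29. Replicate numbers 1 and 3 occur in both genotypes but are not said to mark shared litters or days. Deviations of same-numbered libraries correlated at 0.129 and -0.240, and those of Cd5l-transgenic replicate 2 and 5xFAD replicate 3 at 0.310. The deviations of the 2 5xFAD libraries are equal and opposite by construction, so each correlation recurs with the other sign. Such values cannot show whether same-numbered libraries were paired. With the replicate block Lgals3 was at -0.22, and 0 genes were called. Cd5l-transgenic replicate 2 has no 5xFAD library of its number, so that difference rests on replicates 1 and 3 of each genotype. With 3 mice against 2, an exact permutation test of a single value cannot go below p = 0.1.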
